A study of Mus musculus with 12 samples.

Results

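The genes described here are 34 genes known from fibroblasts of the meninges and from the mural cells of blood vessels, among 53465 genes counted in every library. They were chosen by name, 25 as fibroblast genes and 9 as mural genes, with the collagens left aside, and all 34 names were matched to Ensembl gene identifiers. Their RNA was measured in 12 libraries from the spinal cord of C57BL/6 mice at postnatal day 7, all from animals with the reporters Aldh1L1-GFP and Olig2-tdTomato together. Cells of the brachial and thoracic cord were freed with papain and sorted by fluorescence into the fractions eGFP/tdTomato, eGFP and tdTomato, each with 4 libraries numbered 1, 2, 3 and 5. The labels call the libraries of a fraction biological replicates. How the gates were set, how many animals went into a library and whether libraries came from separate litters are not given in the sources used here, and p-values speak of the spread among these libraries. The reporters are named for Aldh1l1, a folate enzyme of astrocytes, and for Olig2, which directs the oligodendrocyte lineage, and neither gene is a marker of fibroblasts or mural cells. None of the 12 libraries came from dissected meninges, isolated vessels or unsorted cord, so the level of the 34 genes in their own cell types was not measured here. In bulk libraries of this kind, fewer cells of a type and less RNA per cell cannot be told apart.

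Fibroblasts of the dura, arachnoid and pia, and those along larger vessels, make the fibrous matrix that wraps the cord. That matrix is built from collagens together with small leucine-rich proteins, which bind collagen fibrils and set their spacing, and with fibulins, which join elastic fibres and basement membranes. The same cells carry transporters of the barrier between blood and cerebrospinal fluid and the enzyme that makes retinoic acid, while mural cells, the pericytes and smooth muscle cells of vessels, carry the receptor for platelet-derived growth factor B and the contractile proteins of the vessel wall.

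The labels of the fractions were set against their defining genes first. Aldh1l1 averaged 720 ± 170 CPM (counts per 1000000 gene counts, scaled between libraries) in eGFP/tdTomato cells, 405 ± 207 CPM in eGFP cells and 3.69 ± 1.83 CPM in tdTomato cells, and Olig2 74.2 ± 30.0, 5.74 ± 3.06 and 258 ± 80.1 CPM in the same order (SD, n = 4 each). Gene counts per library, in units of 1000000, were 23.9 to 30.3 for eGFP/tdTomato, 12.6 to 27.9 for eGFP and 25.5 to 36.5 for tdTomato cells. The library eGFP replicate 1 stood apart, with the fewest gene counts and 57.1% of its reads outside annotated genes, against 21.2 to 42.5% in the other libraries. Its 1728 olfactory and vomeronasal receptor genes and pseudogenes, a family made in sensory neurons of the nose, together held 3966 CPM, against 33.9 to 1645 CPM elsewhere. Calls of the 34 genes lost without that library are given with and without it.

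The 34 genes did not move as a block. Decorin, lumican, the chemokine gene Ccl11 and the retinoic acid enzyme gene Aldh1a2 were high in the eGFP fraction and low in both others. Biglycan, fibromodulin, the fibulins and Pdgfrb were high in both eGFP-bearing fractions and low in the tdTomato fraction. The contractile genes and the transcription factors were low in all 3 fractions. Summed over the 25 fibroblast genes the level was 419 ± 105 CPM in eGFP/tdTomato cells, 1133 ± 390 CPM in eGFP cells and 23.7 ± 5.56 CPM in tdTomato cells, and over the 9 mural genes 36.4 ± 3.75, 55.1 ± 7.52 and 6.27 ± 2.67 CPM in the same order (SD, n = 4 each). The sums rested on different genes. In eGFP/tdTomato cells, biglycan and fibulin 1 held 36.4% and 20.7% of the fibroblast sum, whereas in eGFP cells decorin held 27.1% and biglycan 20.5%. Decorin held more than biglycan in eGFP replicates 1 (28.5% and 19.5%), 2 (41.1% and 11.1%) and 5 (22.3% and 21.3%). In eGFP replicate 3 it held less (7.39% and 37.2%). In the means without eGFP replicate 2, decorin held 19.2% and biglycan 25.8%. In tdTomato cells Mgp held 16.3%, and Fbln1 held a larger share than Mgp when tdTomato replicate 1 or 5 was left out.

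**Figure D1:**
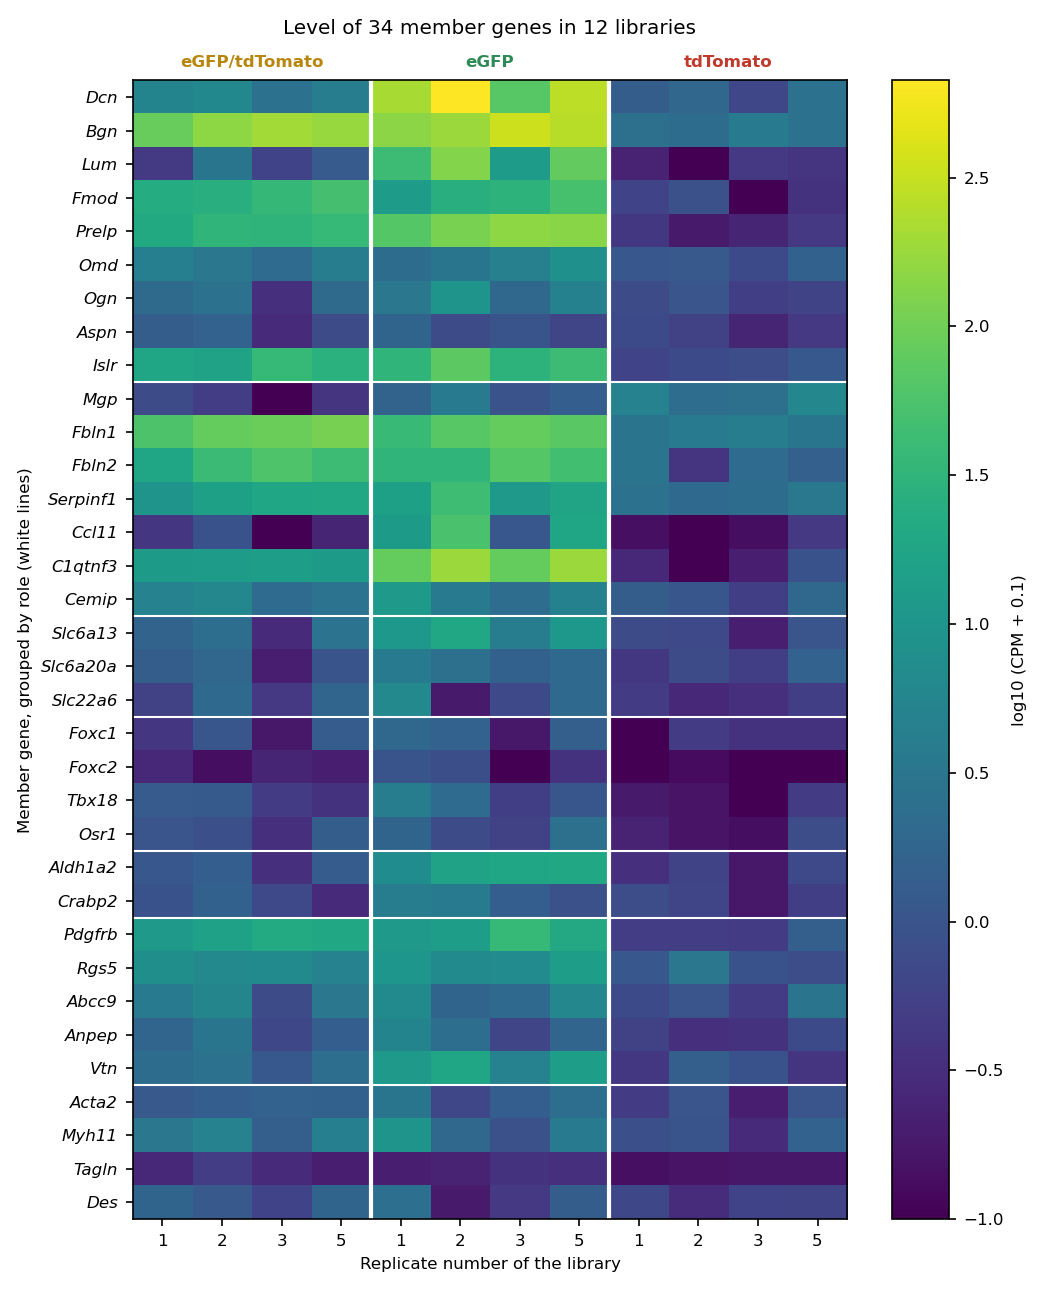
Level of the 34 genes (rows, grouped by role) in the 12 libraries (columns, by fraction and replicate number), as log10 of CPM + 0.1. The eGFP columns are bright for Dcn, Lum and C1qtnf3, the eGFP/tdTomato and eGFP columns are both bright for Bgn, Fbln1, Fbln2 and Fmod, and the rows of the transcription factors and contractile genes are among the darkest.

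Of the 34 genes, 32 passed the filter on low counts and were tested, with Foxc2 and Tagln left out by it. Between eGFP/tdTomato and eGFP cells, 8 of the 32 were lower and 0 higher by edgeR's quasi-likelihood test with Benjamini-Hochberg adjustment over 29361 genes (adjusted p under 0.05), where 1.67% of all genes were called lower and 0.814% higher. The 8 were the fibroblast genes Dcn, Lum, Ccl11, Prelp, C1qtnf3, Slc6a13 and Aldh1a2 and the mural gene Vtn. Against the tdTomato fraction, 16 of the 32 were higher in eGFP/tdTomato cells, a call made for 16.8% of all genes, and only Mgp was lower, a call made for 12.4%. Between eGFP and tdTomato cells, 24 were higher, against 20.4% of all genes, and 0 lower, against 14.9%. The median log2 fold change of the 32 was -0.77, 1.77 and 3.00 in these 3 comparisons, beside -0.02, 0.70 and 0.79 over all genes tested. In 9 of the 32, Mgp besides the 8 called, every eGFP/tdTomato library lay below every eGFP library (4.14% of all genes), and in 0 above (3.76%). Every eGFP/tdTomato library lay above every tdTomato library for 15 of the 32 (20.5% of all genes) and below for 1 (14.8%). Every eGFP library lay above every tdTomato library for 21 (19.5%) and below for 0 (14.3%). The comparisons share libraries, so they are not independent of each other.

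The median against tdTomato cells is set beside that of a family known from the nose. Of 1454 protein-coding olfactory and vomeronasal receptor genes, 1041 were tested, and their median log2 fold change was -0.21 between eGFP/tdTomato and eGFP cells, 1.65 between eGFP/tdTomato and tdTomato cells and 1.92 between eGFP and tdTomato cells. Of these receptor genes 0, 31 and 70 were called higher in the 3 comparisons, the largest share being 6.72%. Several low members that edgeR did not call, such as Foxc1, Osr1, Abcc9, Acta2 and Des, had log2 fold changes against tdTomato cells near these medians. So had some members called higher than in tdTomato cells. For eGFP/tdTomato and eGFP cells the values were 1.70 and 2.12 for Omd, 1.79 and 2.30 for Cemip and 2.06 and 2.26 for Myh11. In eGFP/tdTomato cells Vtn, at 1.53, lay below the receptor median, and Anpep and Rgs5 were at 2.04 and 2.14. In eGFP cells Vtn, Anpep and Rgs5 were at 4.08, 2.63 and 2.69. The 99th percentile of the receptor genes, in CPM per kb of exon, was 0.550 for eGFP/tdTomato, 0.743 for eGFP and 0.203 for tdTomato cells. The means of 17, 21 and 13 of the 34 genes lay above it in the same order. Without eGFP replicate 1, the library with the highest receptor level, the percentile in eGFP cells was 0.562 CPM per kb, and 22 of the 34 genes lay above it.

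**Figure D2:**
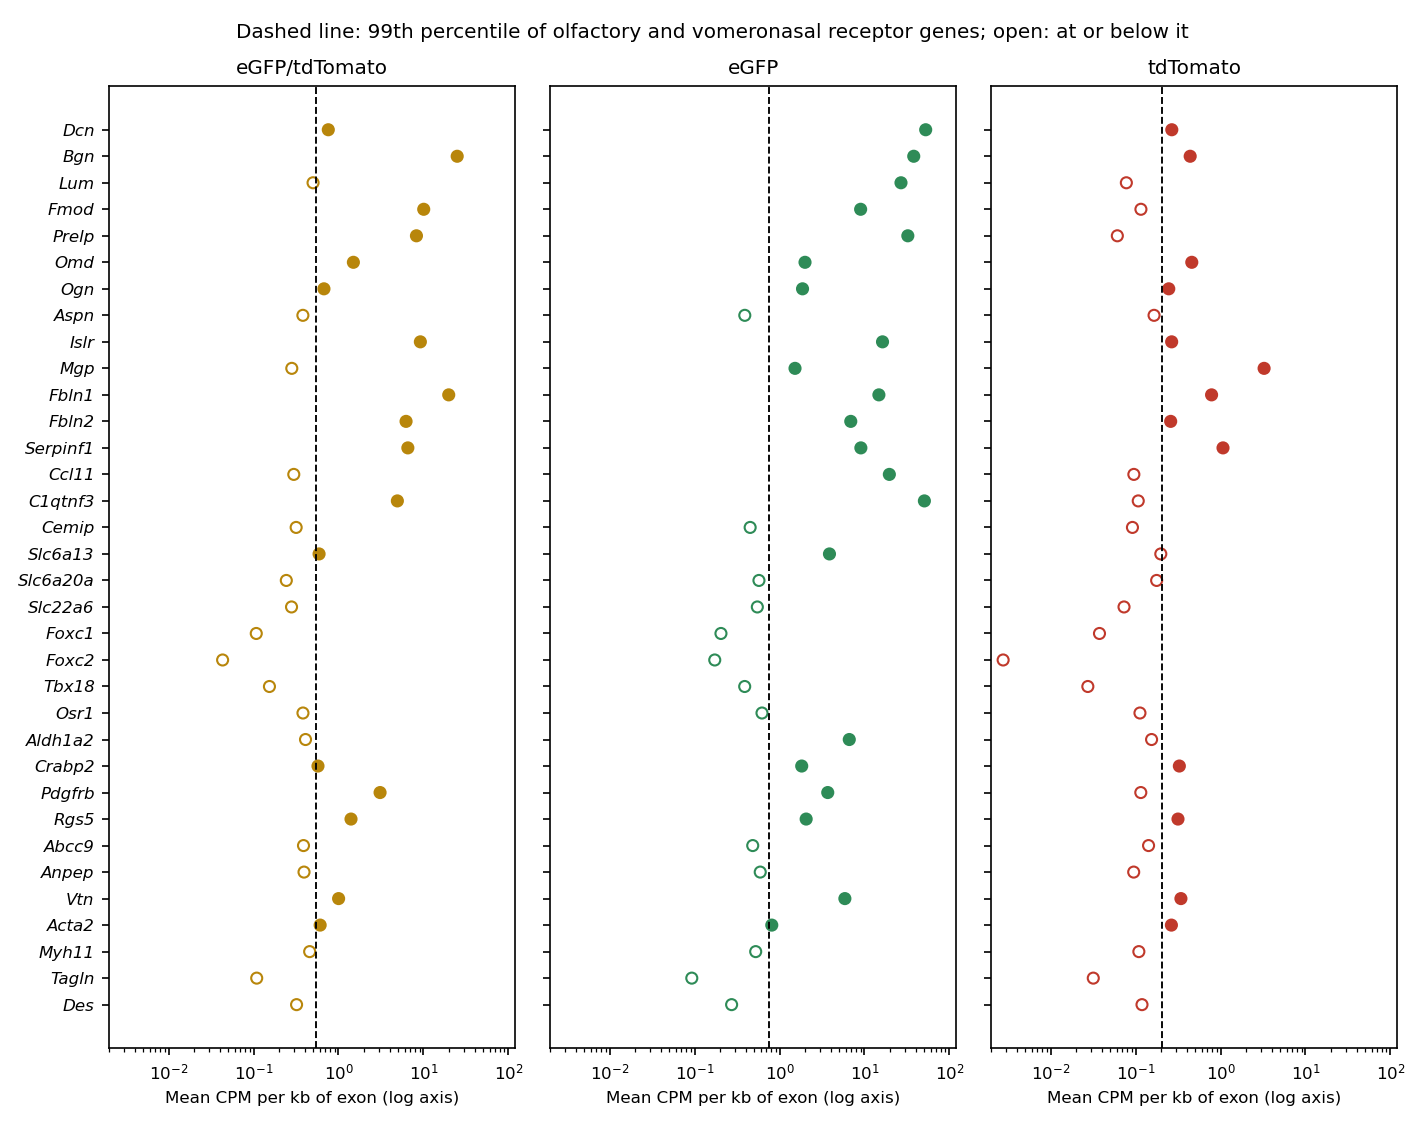
Mean level per kb of exon of each of the 34 genes (log axis) in the eGFP/tdTomato, eGFP and tdTomato fractions, with the 99th percentile of olfactory and vomeronasal receptor genes as a dashed line at 0.550, 0.743 and 0.203 CPM per kb. Filled points (17, 21 and 13 genes) lie above the line, and in every panel the contractile genes except Acta2 and all 4 transcription factors lie at or below it.

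Dcn, decorin, is a proteoglycan that binds collagen fibrils and growth factors, and its mean per length in eGFP cells was 52.6 CPM per kb of exon, or 31.8 CPM per kb without replicate 2, beside 44.7 CPM per kb for C1qtnf3 in the same 3 libraries. It had 5.17, 5.96, 2.71 and 3.88 CPM in eGFP/tdTomato replicates 1, 2, 3 and 5, against 214, 672, 67.2 and 276 CPM in eGFP replicates 1, 2, 3 and 5 and 1.25, 1.74, 0.557 and 2.69 CPM in those of tdTomato. Every eGFP library lay more than an order of magnitude above every other library, and the eGFP libraries differed widely among themselves, with replicate 2 highest and replicate 3 lowest. Dcn was 69.4-fold lower in eGFP/tdTomato than in eGFP cells (log2 fold change -6.12, SE 0.645, edgeR adjusted p = 8.44e-05). Without eGFP replicate 2 the log2 fold change was -5.38. The 4 eGFP/tdTomato libraries all lay above those of tdTomato, with a log2 fold change of 1.498 ± 0.58 (SE) that did not pass the test (edgeR adjusted p = 0.0664). It did pass when eGFP replicate 2, eGFP replicate 3 or tdTomato replicate 5 was left out, with DESeq2 (log2 fold change 1.36, adjusted p = 0.045) and with edgeR on the compared fractions alone (1.28, adjusted p = 0.0452).

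Lum, lumican, a keratan sulphate protein of the same family, followed Dcn. It had 0.340, 2.94, 0.489 and 1.14 CPM in eGFP/tdTomato replicates 1, 2, 3 and 5, against 41.8, 130, 12.8 and 79.4 CPM in the eGFP libraries and 0.134, 0, 0.334 and 0.295 CPM in the tdTomato libraries. The 3 fractions did not overlap, and the eGFP libraries again ran from replicate 3, the lowest, to replicate 2, the highest. The eGFP/tdTomato and tdTomato libraries were barely apart, with 10 counts in eGFP/tdTomato replicate 1 (0.340 CPM) and 9 in tdTomato replicate 3 (0.334 CPM). Per length, Lum averaged 0.502 CPM per kb in eGFP/tdTomato cells, below the receptor percentile of 0.550 CPM per kb. Without eGFP/tdTomato replicate 1 that percentile was 0.561 CPM per kb, and Lum lay above it. Lum was 54.1-fold lower in eGFP/tdTomato than in eGFP cells (log2 fold change -5.76, SE 0.79, edgeR adjusted p = 0.000668), and -6.64 on the log2 scale without eGFP/tdTomato replicate 2. It was higher than in tdTomato cells by 2.69 ± 0.94 on the log2 scale (SE, edgeR adjusted p = 0.0417), but this call was lost in 6 of the 12 fits that left out a library. Without eGFP/tdTomato replicate 2 the value was 1.80, and without eGFP replicate 1 it was 2.44 (edgeR adjusted p = 0.0608). DESeq2 made the call (adjusted p = 0.0355), and it was lost with DESeq2 size factors in edgeR (0.0549), limma-voom (0.39), no filter (0.153), a filter of 1 CPM in 4 libraries (0.0503) and a covariate for reads outside genes (0.111). For every 100 Dcn counts there were 19.5, 19.3, 19.0 and 28.7 Lum counts in eGFP replicates 1, 2, 3 and 5, with exact 95% intervals for counting error of 18.1 to 21.1, 18.6 to 20.1, 16.9 to 21.4 and 27.4 to 30.2. Dcn itself was 9.99-fold higher in eGFP replicate 2 than in replicate 3, while the intervals of the Lum ratio overlapped in those libraries and in replicate 1, with replicate 5 above them.

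Prelp, a basement membrane protein of this family, was present in eGFP/tdTomato cells and higher still in eGFP cells. Its libraries held 20.8, 31.4, 30.3 and 37.2 CPM for eGFP/tdTomato, 64.7, 114, 151 and 139 CPM for eGFP and 0.312, 0.0902, 0.149 and 0.331 CPM for tdTomato cells. The fractions did not overlap, and here eGFP replicate 3 was the highest eGFP library, not the lowest. Prelp was 3.92-fold lower in eGFP/tdTomato than in eGFP cells (log2 fold change -1.97, SE 0.28, edgeR adjusted p = 0.001) and 138-fold higher than in tdTomato cells (log2 fold change 7.11, SE 0.40, edgeR adjusted p = 3.16e-09). An antisense gene overlaps 9.68% of its exon bases, and whether the counting used strand is not given in the sources used here.

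Bgn, biglycan, the closest relative of decorin, did not share decorin's pattern. It had 87.8, 152, 198 and 173 CPM in the eGFP/tdTomato libraries, 146, 181, 338 and 264 CPM in the eGFP libraries and 2.45, 2.16, 3.49 and 2.61 CPM in the tdTomato libraries. The eGFP/tdTomato and eGFP libraries overlapped and replicate 3 was the highest in each fraction, while all 8 lay far above the tdTomato libraries. The difference between eGFP/tdTomato and eGFP cells was -0.61 ± 0.28 on the log2 scale (SE) and did not pass the test (edgeR adjusted p = 0.473), whereas eGFP/tdTomato cells had 56.9-fold more than tdTomato cells (log2 fold change 5.83, SE 0.35, edgeR adjusted p = 5.08e-09). For every 100 Dcn counts there were 68.3, 26.9, 503 and 95.5 Bgn counts in eGFP replicates 1, 2, 3 and 5, so the proportion of these related genes differed widely between eGFP libraries.

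Fmod, fibromodulin, which binds fibrils of type I collagen, was likewise shared. It had 23.4, 25.3, 35.0 and 49.6 CPM in the eGFP/tdTomato libraries, 13.1, 25.3, 30.0 and 50.9 CPM in the eGFP libraries and 0.490, 0.782, 0 and 0.258 CPM in the tdTomato libraries. Replicate 5 was highest and replicate 1 lowest in both eGFP-bearing fractions, which overlapped throughout. Fmod differed by a log2 fold change of 0.16 ± 0.47 (SE) between eGFP/tdTomato and eGFP cells (edgeR adjusted p = 1) and 6.40 ± 0.63 between eGFP/tdTomato and tdTomato cells (edgeR adjusted p = 1.03e-06), or 7.09 without tdTomato replicate 2. Between eGFP and tdTomato cells the log2 fold change was 6.24 ± 0.63 (SE), 6.93 without tdTomato replicate 2 and 5.63 without eGFP replicate 5.

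Islr, a secreted protein with leucine-rich repeats and an immunoglobulin domain that marks many fibroblasts, had 17.9, 15.8, 37.1 and 28.1 CPM in the eGFP/tdTomato libraries, 31.9, 72.1, 29.9 and 41.6 CPM in the eGFP libraries and 0.490, 0.631, 0.706 and 1.03 CPM in the tdTomato libraries. Only eGFP/tdTomato replicate 3 reached into the range of the eGFP libraries, of which replicate 2 was the highest. The log2 fold change of -0.83 ± 0.32 (SE) between eGFP/tdTomato and eGFP cells did not pass the test (edgeR adjusted p = 0.306), and that of 5.10 ± 0.40 against tdTomato cells did (edgeR adjusted p = 7.79e-08). The protein-coding gene Islr2, on the same strand, overlaps 6.74% of the exon bases of Islr. Omd, osteomodulin, averaged 3.37 ± 1.01 CPM in eGFP/tdTomato cells, 4.49 ± 2.73 CPM in eGFP cells and 1.03 ± 0.33 CPM in tdTomato cells (SD, n = 4 each), and it was called higher in both eGFP-bearing fractions than in tdTomato cells. Its log2 fold change between eGFP and tdTomato cells was 2.12, and 1.41 without eGFP replicate 5. Ogn, osteoglycin, averaged 1.73 ± 1.05, 4.79 ± 3.36 and 0.631 ± 0.227 CPM in the same order of fractions and was called only between eGFP and tdTomato cells, with a log2 fold change of 2.91, or 2.33 without eGFP replicate 2. Aspn, asporin, at most 1.60 CPM in any library, was not called in any comparison.

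These genes lie in clusters, and neighbours did not always receive the same calls. On chromosome 10 (GRCm38), Dcn at chr10:97479609-97518143 is followed by Lum at chr10:97565128-97572703, Kera and Epyc. Dcn and Lum were both lower in eGFP/tdTomato than in eGFP cells, whereas Kera, for keratocan, averaged 0.436 CPM in eGFP/tdTomato cells, 0.267 CPM in eGFP cells and 0.213 CPM in tdTomato cells, and Epyc, for epiphycan, 0.823, 0.554 and 0.196 CPM. Neither passed the test in any comparison. On chromosome 13, where Ogn, Omd and Aspn lie within the span of Cenpp, a gene for a centromere protein, their neighbour Ecm2 was the most abundant, with 21.3 ± 3.12 CPM in eGFP/tdTomato cells, 32.2 ± 8.82 CPM in eGFP cells and 1.06 ± 0.193 CPM in tdTomato cells (SD, n = 4 each). Ecm2 was higher in eGFP/tdTomato than in tdTomato cells by 4.34 ± 0.27 on the log2 scale (SE, edgeR adjusted p = 7.05e-09) and Cenpp was not called in any comparison. On chromosome 1, Optc, for opticin, Prelp at chr1:133910304-133921414 and Fmod at chr1:134037254-134048277 lie in a row. Of these, Prelp was called lower in eGFP/tdTomato than in eGFP cells, and Optc and Fmod were not called, while all of them were higher than in tdTomato cells; the difference in response between Prelp and Fmod was not tested.

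The sequence before the start of Prelp, Fmod and Bgn is shown because the first of them differed between eGFP/tdTomato and eGFP cells, its neighbour Fmod and the chromosome X gene Bgn were not called, and all of them were low in tdTomato cells. Each line gives the 250 bases before the RefSeq start (RefSeq, GRCm38.p6), 5′ to 3′ on the strand of the gene, with CG pairs in capitals. The windows lie at chr1:133921402-133921651 on the minus strand (Prelp), chr1:134037004-134037253 on the plus strand (Fmod) and chrX:73483351-73483600 on the plus strand (Bgn).
Prelp: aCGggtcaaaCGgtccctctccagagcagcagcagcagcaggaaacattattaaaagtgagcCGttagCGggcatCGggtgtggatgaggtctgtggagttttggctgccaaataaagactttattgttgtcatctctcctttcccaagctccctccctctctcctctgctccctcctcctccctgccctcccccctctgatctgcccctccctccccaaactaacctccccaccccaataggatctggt
Fmod: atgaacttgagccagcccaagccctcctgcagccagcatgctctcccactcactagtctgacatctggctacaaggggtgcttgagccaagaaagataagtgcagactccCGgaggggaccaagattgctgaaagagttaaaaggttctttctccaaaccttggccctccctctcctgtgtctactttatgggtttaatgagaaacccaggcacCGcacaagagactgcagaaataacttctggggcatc
Bgn: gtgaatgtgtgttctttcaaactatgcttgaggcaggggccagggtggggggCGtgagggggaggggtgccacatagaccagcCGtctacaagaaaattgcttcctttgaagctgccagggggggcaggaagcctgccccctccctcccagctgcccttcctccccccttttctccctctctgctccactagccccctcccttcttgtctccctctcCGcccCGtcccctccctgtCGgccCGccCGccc
They held 5, 2 and 7 CG pairs, beside a median of 6 over 32851 windows of the same length before the starts of mouse genes, and G or C at 55.6%, 51.2% and 64.4% of bases, beside a median of 52.4%. The letters TATAAA, the core of the TATA box, were searched on both strands and are in none of them. They are in 12.4% of all windows and in windows of 5 of the 24 members found in the RefSeq table, namely Aspn, C1qtnf3, Cemip, Ogn and Vtn. These are counts of letters and do not show that a factor binds.

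Among the other secreted and matrix genes, the fibulins overlapped between the 2 eGFP-bearing fractions, whereas C1qtnf3 and Ccl11 were lower in eGFP/tdTomato than in eGFP cells. Of these 2, only C1qtnf3 was called higher in eGFP/tdTomato than in tdTomato cells. C1qtnf3 encodes a secreted relative of complement C1q and adiponectin. It had 11.9, 13.02, 13.4 and 12.2 CPM in the eGFP/tdTomato libraries, against 82.5, 177, 83.7 and 177 CPM in the eGFP libraries and 0.178, 0, 0.111 and 0.810 CPM in the tdTomato libraries. The eGFP/tdTomato libraries were close to one another, and the fractions did not overlap. C1qtnf3 was 10.3-fold lower in eGFP/tdTomato than in eGFP cells (log2 fold change -3.37, SE 0.47, edgeR adjusted p = 0.000724) and 46.3-fold higher than in tdTomato cells (log2 fold change 5.53, SE 0.59, edgeR adjusted p = 2.55e-06). The level in tdTomato cells rested on replicate 5, and without it the log2 fold change was 7.11 for eGFP/tdTomato and 10.46 for eGFP over tdTomato cells, beside 8.90 with it. There were 38.6, 26.3, 124 and 64.1 C1qtnf3 counts for every 100 Dcn counts in eGFP replicates 1, 2, 3 and 5.

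Ccl11, the chemokine eotaxin, which draws eosinophils, had 0.306, 0.834, 0 and 0.148 CPM in the eGFP/tdTomato libraries, against 12.2, 53.4, 0.977 and 18.5 CPM in the eGFP libraries and 0.0445, 0, 0.0372 and 0.331 CPM in the tdTomato libraries. Its eGFP libraries spanned the widest range of the abundant members, and replicate 3, the lowest, came close to the highest eGFP/tdTomato library. The log2 fold change between eGFP/tdTomato and eGFP cells was -6.04 ± 1.11 (SE, edgeR adjusted p = 0.00622), -5.01 with eGFP replicate 2 left out and -7.05 with eGFP/tdTomato replicate 2 left out. Between eGFP and tdTomato cells it was 7.65 ± 1.25 (SE, edgeR adjusted p = 0.000168), 6.62 without eGFP replicate 2 and 9.49 without tdTomato replicate 5. Neither call was made by limma-voom, and the log2 fold change between eGFP/tdTomato and tdTomato cells, 1.61 ± 1.34 (SE), did not pass the test (edgeR adjusted p = 0.373).

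Fbln1, fibulin 1, a calcium-binding protein of elastic fibres and basement membranes, had 57.4, 84.1, 94.0 and 112 CPM in the eGFP/tdTomato libraries, 37.7, 67.4, 82.5 and 71.0 CPM in the eGFP libraries and 2.85, 3.76, 4.13 and 2.98 CPM in the tdTomato libraries. Its levels in the eGFP/tdTomato libraries overlapped those in the eGFP libraries, and in both fractions replicate 1 was the lowest. Fbln1 differed by a log2 fold change of 0.42 ± 0.25 (SE) between eGFP/tdTomato and eGFP cells (edgeR adjusted p = 0.708) and 4.66 ± 0.29 between eGFP/tdTomato and tdTomato cells (edgeR adjusted p = 7.73e-09). Fbln2, fibulin 2, had 17.5, 40.5, 58.8 and 42.3 CPM in the eGFP/tdTomato libraries, 32.2, 31.8, 65.9 and 46.0 CPM in the eGFP libraries and 2.85, 0.271, 2.08 and 1.40 CPM in the tdTomato libraries. Replicate 3 was the highest in both eGFP-bearing fractions, which overlapped, and the log2 fold change between them was -0.15 ± 0.45 (SE, edgeR adjusted p = 1). Against tdTomato cells, Fbln2 was 24.5-fold higher in eGFP/tdTomato cells (log2 fold change 4.62, SE 0.54, edgeR adjusted p = 6.86e-06).

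Serpinf1, pigment epithelium-derived factor, an inhibitor of vessel growth, had 9.42, 14.9, 17.6 and 19.9 CPM in the eGFP/tdTomato libraries, 14.7, 42.9, 11.2 and 16.8 CPM in the eGFP libraries and 2.63, 1.92, 2.19 and 3.35 CPM in the tdTomato libraries. Apart from eGFP replicate 2, the eGFP-bearing libraries lay within the same range, and the tdTomato libraries lay below it. Serpinf1 differed by a log2 fold change of -0.47 ± 0.37 (SE) between eGFP/tdTomato and eGFP cells (edgeR adjusted p = 0.911), 2.62 ± 0.40 between eGFP/tdTomato and tdTomato cells (edgeR adjusted p = 9.7e-05) and 3.09 between eGFP and tdTomato cells, or 2.49 without eGFP replicate 2. Cemip, a protein that breaks down hyaluronan, had 4.90, 5.72, 2.11 and 2.81 CPM in the eGFP/tdTomato libraries, 11.4, 3.78, 2.26 and 4.63 CPM in the eGFP libraries and 1.25, 0.962, 0.409 and 1.88 CPM in the tdTomato libraries. The library eGFP replicate 1 was the highest, and per length Cemip lay below the 99th percentile of the receptor genes in every fraction. Its log2 fold change against tdTomato cells was 1.79 ± 0.56 (SE) for eGFP/tdTomato cells (edgeR adjusted p = 0.0235, lost in 5 of 12 fits without a library) and 2.30 ± 0.56 for eGFP cells (edgeR adjusted p = 0.00468), or 1.46 without eGFP replicate 1.

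Mgp, matrix Gla protein, an inhibitor of calcification, was the only member called lower in eGFP/tdTomato than in tdTomato cells. It averaged 0.335 ± 0.267 CPM in eGFP/tdTomato cells, 1.81 ± 1.17 CPM in eGFP cells and 3.87 ± 1.77 CPM in tdTomato cells (SD, n = 4 each). All 4 eGFP/tdTomato libraries, at most 0.646 CPM, lay below the other 8, whose lowest was 0.864 CPM. The log2 fold change between eGFP/tdTomato and tdTomato cells was -3.50 ± 0.79 (SE, edgeR adjusted p = 0.00289) and that between eGFP/tdTomato and eGFP cells, -2.41 ± 0.77, did not pass (edgeR adjusted p = 0.153), whereas it did by DESeq2 (adjusted p = 0.00596). Libraries of eGFP and tdTomato cells overlapped, and the log2 fold change between them, -1.095 ± 0.711 (SE), did not pass (edgeR adjusted p = 0.233).

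**Figure D3:**
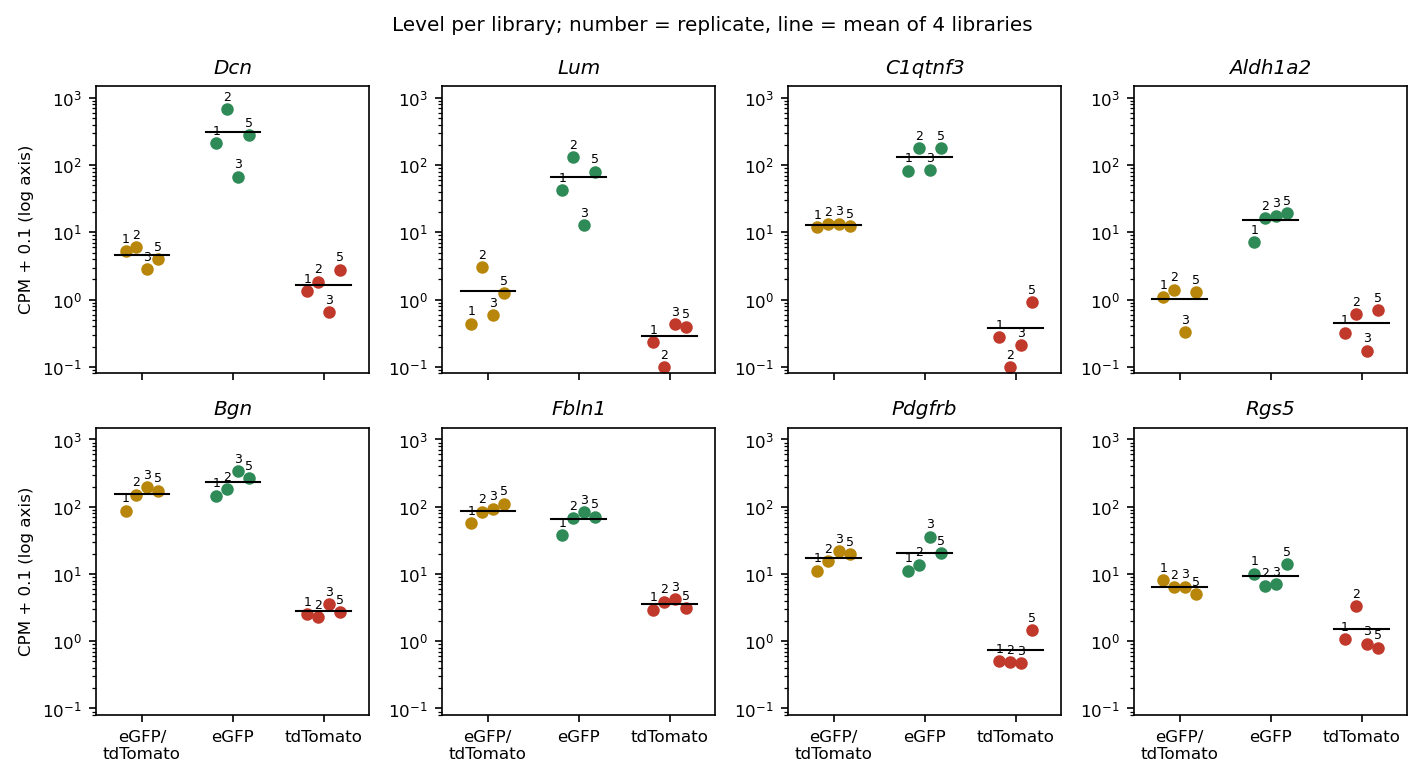
CPM + 0.1 on a log axis in each library of the eGFP/tdTomato, eGFP and tdTomato fractions for 8 of the 34 genes, with the replicate number beside each point and the mean of 4 libraries as a line. In the upper row (Dcn, Lum, C1qtnf3, Aldh1a2) the eGFP libraries lie above both other fractions, and in the lower row (Bgn, Fbln1, Pdgfrb, Rgs5) the eGFP/tdTomato and eGFP libraries overlap above those of tdTomato.

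Of the membrane transporters, Slc6a13, which takes up GABA and taurine at the leptomeninges, had 1.56, 2.30, 0.188 and 2.81 CPM in the eGFP/tdTomato libraries, against 10.8, 19.4, 4.06 and 10.8 CPM in the eGFP libraries and 0.668, 0.601, 0.111 and 0.920 CPM in the tdTomato libraries. All eGFP libraries lay above the other 8, with replicate 2 the highest and replicate 3 the lowest, as for Dcn. Slc6a13 was 6.55-fold lower in eGFP/tdTomato than in eGFP cells (log2 fold change -2.71, SE 0.68, edgeR adjusted p = 0.0478), a call lost in 9 of the 12 fits without a library, whose adjusted p reached 0.179 without eGFP replicate 2. Without eGFP replicate 1 the value was -2.82 (edgeR adjusted p = 0.0533). Between eGFP and tdTomato cells its log2 fold change was 4.28 ± 0.74 (SE, edgeR adjusted p = 0.000272). Slc22a6, an organic anion transporter, averaged 1.11 ± 0.825 CPM in eGFP/tdTomato cells, 2.18 ± 2.74 CPM in eGFP cells and 0.291 ± 0.107 CPM in tdTomato cells (SD, n = 4 each), with 6.12 CPM in eGFP replicate 1 and at most 1.95 CPM in any other library. Its call between eGFP and tdTomato cells, a log2 fold change of 2.897 (edgeR adjusted p = 0.0356), rested on that library, without which the value was 1.39 (edgeR adjusted p = 0.296). Slc6a20a, a transporter of proline and related amino acids, reached at most 3.53 CPM, again in eGFP replicate 1, and was not called. An antisense gene overlaps 13.8% of its exon bases.

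Aldh1a2, the enzyme with which the meninges make retinoic acid, had 0.986, 1.31, 0.226 and 1.18 CPM in the eGFP/tdTomato libraries, against 7.06, 16.1, 17.6 and 19.3 CPM in the eGFP libraries and 0.223, 0.511, 0.0743 and 0.589 CPM in the tdTomato libraries. The eGFP libraries did not overlap the others, and in contrast to Dcn the lowest of them was replicate 1. Aldh1a2 was 16.1-fold lower in eGFP/tdTomato than in eGFP cells (log2 fold change -4.01, SE 0.57, edgeR adjusted p = 0.000838) and 41.9-fold higher in eGFP than in tdTomato cells (log2 fold change 5.39, SE 0.62, edgeR adjusted p = 4.73e-06). Its counts for every 100 Dcn counts were 3.30, 2.40, 26.2 and 6.97 in eGFP replicates 1, 2, 3 and 5. Crabp2, which carries retinoic acid to its receptors, was low, with 0.758 ± 0.519 CPM in eGFP/tdTomato cells, 2.41 ± 1.62 CPM in eGFP cells and 0.433 ± 0.270 CPM in tdTomato cells (SD, n = 4 each). It was called only between eGFP and tdTomato cells, by 2.47 on the log2 scale (edgeR adjusted p = 0.0269), and that call was lost in 5 of the 12 fits without a library. Without eGFP replicate 1 the value was 1.90 (edgeR adjusted p = 0.104).

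The transcription factors Foxc1, Foxc2, Tbx18 and Osr1, which are needed for or mark mesenchyme of the meninges and vessel wall, summed to 2.26 ± 0.965 CPM in eGFP/tdTomato cells, 4.79 ± 3.00 CPM in eGFP cells and 0.589 ± 0.506 CPM in tdTomato cells (SD, n = 4 each). Per length, with all libraries, none of them rose above the 99th percentile of the receptor genes in any fraction. Without eGFP replicate 1 that percentile in eGFP cells was 0.562 CPM per kb, and Osr1 lay above it. Foxc1 averaged 0.629, 1.20 and 0.220 CPM, and Foxc2 0.118, 0.471 and 0.00751 CPM, in eGFP/tdTomato, eGFP and tdTomato cells. By edgeR Tbx18 alone was called, between eGFP and tdTomato cells (log2 fold change 3.78, SE 1.07, edgeR adjusted p = 0.0118), and was highest in eGFP replicate 1, at 3.92 CPM. Without that library its log2 fold change was 2.903 and did not pass (edgeR adjusted p = 0.0532), and without tdTomato replicate 5 it was 5.07. DESeq2 also called Tbx18 between eGFP/tdTomato and tdTomato cells (adjusted p = 0.0445), and Osr1 was called between eGFP and tdTomato cells by DESeq2 (adjusted p = 0.0267) and limma-voom (adjusted p = 0.0471). An antisense transcript overlaps 20.6% of the exon bases of Tbx18.

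Of the pericyte genes, Pdgfrb, the receptor that recruits pericytes to vessels, had 11.1, 15.3, 21.6 and 19.6 CPM in the eGFP/tdTomato libraries, 11.1, 13.7, 35.9 and 20.2 CPM in the eGFP libraries and 0.401, 0.391, 0.372 and 1.36 CPM in the tdTomato libraries. The eGFP/tdTomato and eGFP libraries overlapped, and replicate 3 was the highest of each, as for Bgn. Pdgfrb differed by a log2 fold change of -0.26 ± 0.40 (SE) between eGFP/tdTomato and eGFP cells (edgeR adjusted p = 1) and 4.74 ± 0.50 between eGFP/tdTomato and tdTomato cells (edgeR adjusted p = 1.92e-06), or 5.43 without tdTomato replicate 5. Between eGFP and tdTomato cells it was 5.00 ± 0.50 (SE), or 5.68 without that library. Rgs5, a regulator of G-protein signalling that marks pericytes, had 7.99, 6.27, 6.36 and 4.91 CPM in the eGFP/tdTomato libraries, 10.04, 6.59, 6.99 and 13.8 CPM in the eGFP libraries and 0.979, 3.25, 0.818 and 0.700 CPM in the tdTomato libraries. The first 2 fractions overlapped, and tdTomato replicate 2 stood above the other tdTomato libraries. The log2 fold change against tdTomato cells was 2.14 ± 0.46 for eGFP/tdTomato cells (SE, edgeR adjusted p = 0.0019) and 2.69 ± 0.46 for eGFP cells (SE, edgeR adjusted p = 0.000271), or 2.94 and 3.48 without tdTomato replicate 2.

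Vtn, vitronectin, an adhesion protein that pericytes of the central nervous system secrete, was the mural gene that followed Dcn. It had 2.18, 2.66, 1.02 and 2.29 CPM in the eGFP/tdTomato libraries, against 11.2, 18.6, 4.81 and 13.2 CPM in the eGFP libraries and 0.312, 1.35, 0.818 and 0.295 CPM in the tdTomato libraries. The eGFP libraries lay above all others, with replicate 2 highest and replicate 3 lowest, and those of eGFP/tdTomato and tdTomato overlapped. Vtn was 5.86-fold lower in eGFP/tdTomato than in eGFP cells (log2 fold change -2.55, SE 0.51, edgeR adjusted p = 0.012), and without eGFP replicate 2 the value was -2.24 (edgeR adjusted p = 0.0553). Its log2 fold change of 1.53 ± 0.52 (SE) between eGFP/tdTomato and tdTomato cells (edgeR adjusted p = 0.038) lost the call in 9 of the 12 fits without a library, and was 1.28 (edgeR adjusted p = 0.0839) without eGFP replicate 1. Anpep, aminopeptidase N, averaged 1.62 ± 0.994 CPM in eGFP/tdTomato cells, 2.45 ± 2.01 CPM in eGFP cells and 0.393 ± 0.181 CPM in tdTomato cells (SD, n = 4 each), with its highest value, 5.24 CPM, in eGFP replicate 1. Its calls were a log2 fold change of 2.04 for eGFP/tdTomato over tdTomato cells (edgeR adjusted p = 0.0441), lost in 9 of the 12 fits without a library and 1.78 (edgeR adjusted p = 0.0543) without eGFP replicate 1, and of 2.63 for eGFP over tdTomato cells (edgeR adjusted p = 0.0106), which was 1.77 (edgeR adjusted p = 0.0677) without eGFP replicate 1. Limma-voom made neither call for Anpep, nor that of Vtn over tdTomato cells in eGFP/tdTomato cells. Abcc9, the sulphonylurea receptor subunit of pericyte potassium channels, averaged 3.24 ± 1.97, 4.05 ± 2.64 and 1.19 ± 1.12 CPM in eGFP/tdTomato, eGFP and tdTomato cells (SD, n = 4 each) and was not called by edgeR. DESeq2 called it between eGFP and tdTomato cells (log2 fold change 1.67, adjusted p = 0.0496, beside an edgeR adjusted p of 0.0676).

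The contractile genes Acta2, Myh11, Tagln and Des of smooth muscle summed to 6.23 ± 1.95 CPM in eGFP/tdTomato cells, 6.98 ± 5.78 CPM in eGFP cells and 1.92 ± 0.894 CPM in tdTomato cells (SD, n = 4 each). The eGFP libraries ranged from 2.63 to 14.9 CPM, the highest being replicate 1, and without it their mean was 4.34 CPM, below that of eGFP/tdTomato cells. Acta2, smooth muscle actin, averaged 1.34 ± 0.184, 1.78 ± 1.05 and 0.580 ± 0.412 CPM in the same order and was not called in any comparison, and neither was Des, desmin. Myh11, smooth muscle myosin, averaged 3.48 ± 1.59, 3.98 ± 3.85 and 0.831 ± 0.543 CPM, with 9.43 CPM in eGFP replicate 1. It was called higher than in tdTomato cells for both eGFP-bearing fractions (log2 fold changes 2.06 and 2.26, edgeR adjusted p = 0.0442 and 0.0253), but lost these calls in 7 and 5 of the 12 fits without a library, and without eGFP replicate 1 the second was 1.17 (edgeR adjusted p = 0.216). Limma-voom made neither call. Tagln, transgelin, had between 7 and 23 counts in all 4 libraries of a fraction together, and an antisense gene overlaps 62.4% of its exon bases.

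**Figure D4:**
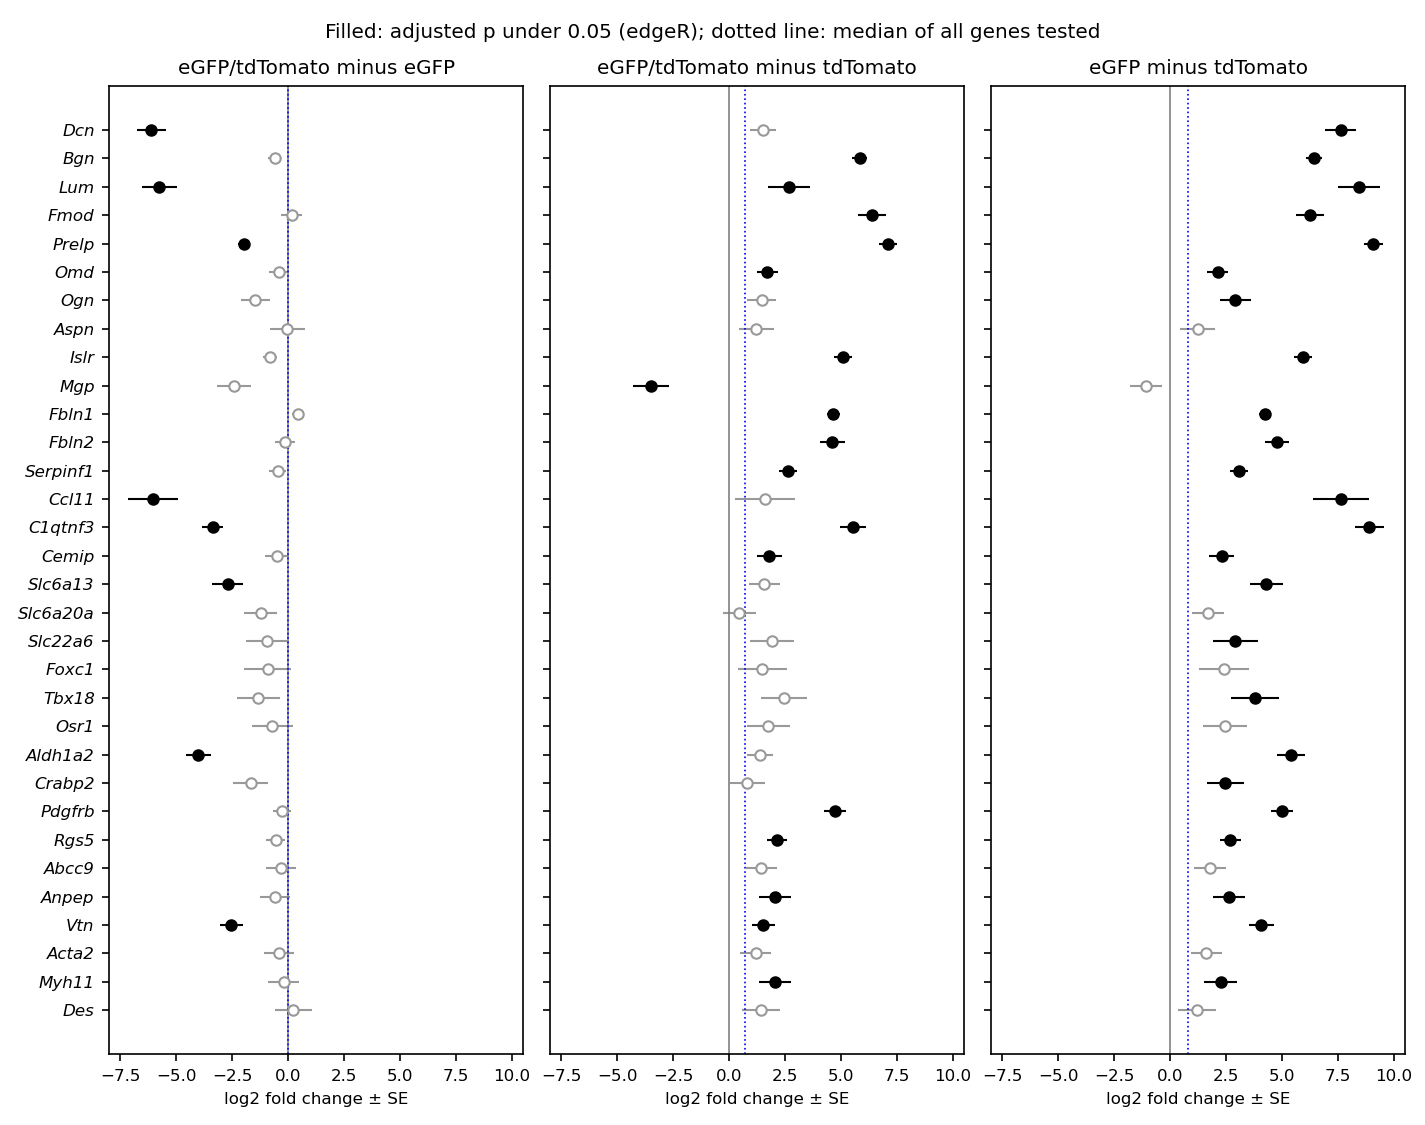
Log2 fold change with its SE for the 32 genes tested, between eGFP/tdTomato and eGFP cells (left), eGFP/tdTomato and tdTomato cells (middle) and eGFP and tdTomato cells (right), with genes of adjusted p under 0.05 filled and the median of all genes tested as a dotted line. On the left 8 genes are filled, all below 0; in the middle 16 are filled above 0 and Mgp below; on the right 24 are filled, all above 0.

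Across the 4 eGFP libraries the abundant members fell into different orders. Of the 17 genes with at least 5 CPM in their highest fraction, replicate 3 was the lowest eGFP library for 8 (Dcn, Lum, Ccl11, Islr, Serpinf1, Slc6a13, Cemip and Vtn) and the highest for 5 (Prelp, Bgn, Fbln1, Fbln2 and Pdgfrb). Replicate 2 was the highest for 7, namely Dcn, Lum, Ccl11, Islr, Serpinf1, Slc6a13 and Vtn. These orders depend on the scaling between libraries, whose factor, by which levels are divided, was 1.44 for eGFP replicate 1. It was 0.954 to 1.15 for the other eGFP libraries. Among the 17 genes that stayed under 5 CPM, eGFP replicate 1 was the highest eGFP library for 12, among them Myh11, Abcc9, Anpep, Tbx18 and Foxc1. In that library the mean level of the receptor genes was also the highest of all 12, at 0.522 CPM per kb, against 0.00859 to 0.293 CPM per kb in the others. Its part in the level of these low genes was not tested.

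**Figure D5:**
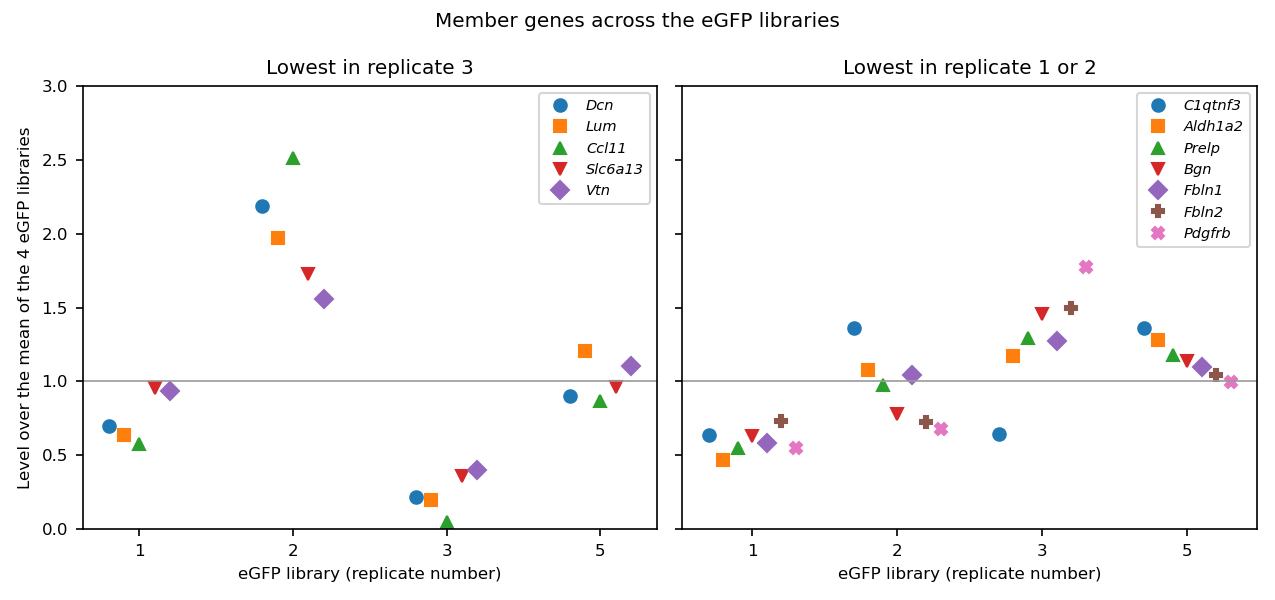
Level in each eGFP library over the mean of the 4 eGFP libraries (vertical axis, ratio) for 5 genes lowest in replicate 3 (left) and 7 genes lowest in replicate 1 or 2 (right). The left genes are highest in replicate 2 and the right genes Prelp, Bgn, Fbln1, Fbln2 and Pdgfrb are highest in replicate 3. For C1qtnf3, replicates 1 and 3 had 82.5 and 83.7 CPM. Scaled by library size only they had 119 and 79.8 CPM, with replicate 3 the lowest.

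Genes of other cells at the border of the cord were also higher in the eGFP fraction. The 10 genes listed for border macrophages summed to 15.6 to 24.4 CPM in eGFP/tdTomato libraries, 66.8 to 793 CPM in eGFP libraries and 2.75 to 6.04 CPM in tdTomato libraries, and 7 of the 10 were called lower in eGFP/tdTomato than in eGFP cells. F13a1, coagulation factor XIII, averaged 1.57 ± 1.30, 64.5 ± 82.7 and 0.787 ± 0.553 CPM and Mrc1, the mannose receptor, 5.65 ± 0.774, 43.5 ± 49.9 and 0.727 ± 0.468 CPM in eGFP/tdTomato, eGFP and tdTomato cells (SD, n = 4 each). Their highest eGFP library as a list was replicate 5, at 793 CPM (the list averaged 277 CPM over the eGFP libraries and 105 CPM without replicate 5), which was not the library in which Dcn was highest. The 12 genes listed for ependyma, the ciliated lining of the central canal, summed to 29.2 to 41.8, 354 to 790 and 7.02 to 14.0 CPM in the same order, and all 12 were called lower in eGFP/tdTomato than in eGFP cells. The 15 genes listed for endothelium summed to 69.7 to 94.7 CPM in eGFP/tdTomato, 127 to 220 CPM in eGFP and 72.1 to 118 CPM in tdTomato libraries, and only Itm2a among them was called lower in eGFP/tdTomato than in eGFP cells. Itm2a alone averaged 51.7, 119 and 74.9 CPM in the same order, most of the list's means of 81.1, 164 and 88.2 CPM. Of the 12 genes listed for microglia, C1qa, C1qb, C1qc and Csf1r were lower in eGFP/tdTomato cells, and the list summed to 176 to 269, 182 to 548 and 102 to 172 CPM in eGFP/tdTomato, eGFP and tdTomato libraries. Sall1 alone averaged 124, 130 and 90.5 CPM in the same order, beside list means of 206, 342 and 133 CPM. Of the genes listed for Schwann cells (7 tested), cartilage, bone and tendon (10 tested) and skeletal muscle (8 tested), 0 were called between eGFP/tdTomato and eGFP cells. In that comparison 1.67% of all genes were called lower and 0.814% higher, so 0 calls among so few genes is near the share of all genes. The part of these other cell types in the levels of the 34 genes was not tested.

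The collagens, described only for comparison, showed both patterns. Col1a1 averaged 12.4 ± 2.86 CPM in eGFP/tdTomato cells, 193 ± 130 CPM in eGFP cells and 3.80 ± 1.40 CPM in tdTomato cells, and Col3a1 6.31 ± 1.39, 176 ± 114 and 2.45 ± 1.69 CPM (SD, n = 4 each), both called lower in eGFP/tdTomato than in eGFP cells, as Dcn was. Col1a2, whose product pairs with that of Col1a1 in type I collagen, averaged 407 ± 91.3, 474 ± 116 and 4.13 ± 1.60 CPM and was not called between those fractions (log2 fold change -0.22, SE 0.26, edgeR adjusted p = 1), as Bgn was not.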

How the data were processed

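Total RNA of 12 sorted libraries was sequenced on a BGISEQ-500, per the labels. The authors aligned reads to GRCm38 (mm10) with STAR and counted them per gene with HTSeq, per the submitters' processing notes; versions, annotation release and strand mode are not given in the sources used here. The deposited values are raw counts for 53465 genes. The 5 lines per file that name no gene were left out, and 28.5 to 64.0% of the reads of a library were in genes. No libraries were identical. Names, exons and positions came from GENCODE M21, and windows before gene starts from RefSeq GRCm38.p6.

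Counts were tested with edgeR 4.0.16 in R 4.3.3 (quasi-likelihood F-test, robust, TMM, filterByExpr by fraction, 12 libraries in 1 fit), with Benjamini-Hochberg adjustment over 29361 genes. The SE given with an edgeR log2 fold change is its absolute value divided by the square root of the F statistic. It is derived from the test and is not an estimate that edgeR reports. The step was tested on simulated counts. Intervals cover counting error only. Alternatives were DESeq2 1.42.0, limma-voom (limma 3.58.1), other scalings and filters, the compared fractions alone, a covariate, a replicate block and leaving out each library. Members called in at least 1 comparison and reaching a mean of 5 CPM are given per library, and up to 3 of the most abundant genes per other list could be named. Members and lists were chosen with earlier results of these data known. Neighbours of members (Kera, Epyc, Ecm2, Optc, Cenpp), the collagens and companions named for a small count were added after values were seen. Genes of the mitochondrial genome have 0 counts in every library.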

Additional observations from a re-analysis of the deposited data

Results flagged for a closer look

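Each of the 34 genes and the summed level of the fibroblast and mural genes were checked in every fraction for a library far from the other 3, which made 108 groups, and 5 were found, all among tdTomato libraries. By chance about 1 group in 20 is picked out in this way, which is about as many as were found. Pdgfrb had 1.36 CPM in tdTomato replicate 5, against 0.372 to 0.401 CPM in the other tdTomato libraries. Rgs5 had 3.25 CPM in tdTomato replicate 2, against 0.700 to 0.979 CPM in the others. Osr1 had 0.700 CPM in tdTomato replicate 5, against 0.0372 to 0.134 CPM, and Ccl11 had 0.331 CPM in the same library, against 0 to 0.0445 CPM. Foxc2 had 0.0301 CPM in tdTomato replicate 2, which was its only count in that fraction, and was at 0 in the others. A gene counted in only 1 library of a fraction is always picked out.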

How the results depend on the processing

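Between eGFP/tdTomato and eGFP cells, the 7 fibroblast genes called lower were 6 or 7 without any 1 library, and Vtn, the mural gene, lost its call without eGFP replicate 2, which leaves a count of 0 to 1. Mural genes higher in eGFP/tdTomato than in tdTomato cells, 5 in the analysis reported, were 2 with DESeq2 size factors, limma-voom, no filter or a covariate for reads outside genes, 3 with a filter of 1 CPM in 4 libraries, and 2 to 5 without a library (2 when tdTomato replicate 1 or 3, eGFP replicate 5 or any of eGFP/tdTomato replicates 1, 2 and 5 was left out, and 3 when eGFP replicate 1 or tdTomato replicate 2 was). Mural genes higher in eGFP than in tdTomato cells, 5, were 3 with limma-voom or the covariate and 3 to 7 without a library, the 3 without eGFP replicate 1. Fibroblast genes called higher were 9 to 14 (eGFP/tdTomato over tdTomato) and 16 to 21 (eGFP over tdTomato) without a library. The calls over all genes moved in the same fits. Genes higher in eGFP/tdTomato than in tdTomato cells, 4935 in the analysis reported, were 3767 to 6232 without a library. Those higher in eGFP than in tdTomato cells, 5975, were 4359 to 7632.

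Of all genes, 239 were higher in eGFP/tdTomato than in eGFP cells, and 546 by DESeq2 and 479 with the covariate; 491 were lower, and 979 by DESeq2. Without a library the counts were 103 to 475 higher and 323 to 656 lower. The higher count moved most when eGFP/tdTomato replicate 3 (103), eGFP replicate 5 (108), eGFP/tdTomato replicate 5 (127) or 1 (151) or eGFP replicate 2 (152) or 3 (475) was left out, and the lower count when eGFP/tdTomato replicate 5 (323) was. Genes lower in eGFP/tdTomato than in tdTomato cells were 2888 to 5452, the 5452 without eGFP replicate 1. The mural sum in eGFP cells was 63.9 CPM when scaled by library size only. Relative to the scaling used, the log2 fold changes shifted by -0.05, -0.12 and -0.07 with DESeq2 size factors and by -0.22, 0.12 and 0.33 with library size only (eGFP/tdTomato over eGFP, eGFP/tdTomato over tdTomato, eGFP over tdTomato).

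The replicate numbers are shared by the fractions, and the labels do not say what libraries of the same number share. Deviations of same-numbered libraries correlated by -0.233 to 0.684, and 6 of 12 pairs correlated best with their own number. Replicate 3 did so in every comparison (0.684, 0.625 and 0.544). Whether the numbers mark pairs was not settled by this, so the fit reported does not pair them and the block is given beside it. With the replicate as a block, 566 of all genes were higher and 673 lower in eGFP/tdTomato than in eGFP cells, the same number of members (8) was lower, and members higher than in tdTomato cells were 21 for eGFP/tdTomato (21.1% of all genes) and 25 for eGFP cells (24.3% of all genes). The block added Dcn (log2 fold change 1.63), Slc6a13 (1.47), Osr1 (2.25), Aldh1a2 (1.45) and Abcc9 (1.55) for eGFP/tdTomato and Osr1 (2.84) and Abcc9 (1.95) for eGFP over tdTomato cells, and Slc22a6 lost its call for eGFP over tdTomato cells. Means of eGFP cells without a library, for sums, shares and levels per length, were added after seeing the data.

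Changes of sign were seen only for values that did not pass the test. Between eGFP/tdTomato and eGFP cells, leaving out 1 library in turn gave log2 fold changes of -0.15 to 0.51 for Fmod, -0.39 to 0.30 for Aspn, -0.70 to 0.029 for Omd, -0.45 to 0.13 for Fbln2, -0.69 to 0.13 for Serpinf1, -1.36 to 0.27 for Slc22a6, -0.75 to 0.057 for Cemip, -0.52 to 0.18 for Pdgfrb, -0.52 to 0.60 for Myh11, -1.03 to 0.006 for Anpep and -0.12 to 1.04 for Des. With the covariate the log2 fold changes between those fractions were 0.65 for Myh11, 0.12 for Aspn, 0.225 for Slc22a6, 0.001 for Cemip and 0.027 for Abcc9. Myh11 was at 0.31 with limma-voom and 0.12 with the replicate block. With the covariate, Slc6a20a was at -0.37 between eGFP/tdTomato and tdTomato cells and Des at -0.68 between eGFP and tdTomato cells. The cause of these changes was not tested.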

Other observations

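Further genes known from fibroblasts and mural cells were counted as companion lists. Of 26 fibroblast companion genes tested, 3 were lower in eGFP/tdTomato than in eGFP cells (Lama1, Pcolce and Ptgds, named because the count is small) and Cldn11 was higher. Between these fractions 1.67% of all genes were called lower and 0.814% higher. Ptgds, prostaglandin D synthase, a known product of arachnoid cells, averaged 2.01 CPM in eGFP/tdTomato cells, 19.6 CPM in eGFP cells and 4.48 CPM in tdTomato cells. Igfbp5, which binds insulin-like growth factors, averaged 322 ± 143, 643 ± 245 and 6.01 ± 2.37 CPM in the same order (SD, n = 4 each). Cldn11 and Gsn were highest in tdTomato cells. Cldn11, a tight junction gene of arachnoid cells and of myelin, averaged 78.8 ± 32.6 CPM in eGFP/tdTomato cells, 13.1 ± 3.30 CPM in eGFP cells and 6584 ± 1787 CPM in tdTomato cells, and Gsn, gelsolin, 73.8 ± 31.0, 51.9 ± 10.4 and 3483 ± 1092 CPM (SD, n = 4 each).

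Of 19 mural companion genes tested, 1 was lower and 2 were higher in eGFP/tdTomato than in eGFP cells (Nr2f2, and Heyl and Gucy1b1). These counts stand beside 1.67% of all genes called lower and 0.814% called higher. Notch3, a receptor of mural cells, averaged 121 ± 50.0 CPM in eGFP/tdTomato cells, 63.0 ± 41.7 CPM in eGFP cells and 0.854 ± 0.587 CPM in tdTomato cells (SD, n = 4 each). Mcam, also made by pericytes, averaged 4.58 ± 0.841, 3.65 ± 1.30 and 131 ± 35.3 CPM, and Gucy1a1, a subunit of soluble guanylate cyclase, 62.4 ± 7.70, 51.7 ± 16.3 and 131 ± 16.3 CPM, so both were highest in tdTomato cells. Igf2, a gene of meningeal fibroblasts, had at most 0.164 CPM on average in any fraction, but another gene on the same strand overlaps 62.8% of its exon bases.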
